A study of Mus musculus with 2 samples.

Results

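Adamts1, Adamts2, Adamts5, Adamts9, Adamts10, Adamts12 and Adamts15 encode secreted matrix proteases. These 7 genes were taken by name from the per-gene read counts of adult and aged heart nuclei, in which each of them was listed at both ages, among 25235 genes listed at either age and 21471 listed at both. The adult heart was from a 9-week-old and the aged heart from a 78-week-old female F1 mouse with a C57BL/6J (BL6) mother and a CAST/EiJ (CAST) father. The labels give the cross as C57BL/6JxCAST/EiJ in the genotype field and name C57BL/6J∆Xist-/+ for the mother in the breed field, and the study describes both hearts as wild type. The ages are those of the labels, and the deposited name of the aged counts gives a different week number. Nuclei of frozen hearts were sorted by their DNA stain and sequenced from the 3′ end of the RNA. Only nuclei with an active BL6 X chromosome were pooled, over all cell types, and a read was counted where it covered a position that differs between the strains (SNP-overlapping read). All 7 genes are autosomal, so that both alleles are free to be read in these nuclei.

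With 1 heart per age there is no replicate, no test between the ages was made, and every 95% interval below covers counting error alone. The intervals take each read as independent. A collapse of duplicate reads is not stated for these counts, so the intervals may be too narrow even for counting error. The adult library held 9747535 and the aged library 5805807 SNP-overlapping reads, so that 1 read corresponds to 0.103 and 0.172 RPM (reads scaled to a library total of 1e+06). Cardiomyocyte markers were present at a summed 28281 RPM in the adult and 26452 RPM in the aged library, with all 6 of them listed at both ages.

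ADAMTS proteases are zinc metalloproteases that carry thrombospondin type 1 repeats and act outside the cell. They are made as inactive precursors, and proprotein convertases such as furin remove the propeptide. Some members cleave the large hyaluronan-binding proteoglycans versican and aggrecan, others trim procollagens or attach to fibrillin microfibrils, and versican turnover by this family shapes the cushions and valves of the developing heart. In the adult heart, fibroblasts, vascular wall cells and endothelium are known sources of several members.

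The 250 bases before the gene start are shown for Adamts1 and Adamts2, which were more than 1.5-fold higher in the aged library, and for Adamts12, the 1 member that was lower there. The sequences are from RefSeq on GRCm38.p6 and read 5′ to 3′ along the gene, and capitals mark matches on either strand to the GC box GGGCGG and the TATA box TATAAA. The Adamts1 window is chr16:85803114-85803363 (minus strand), that of Adamts2 chr11:50601835-50602084 (plus strand) and that of Adamts12 chr15:11064523-11064772 (plus strand). The RefSeq start of Adamts12 lies slightly before the start of the counted locus. Windows were given for 4 of the 7 members, with Adamts9 as the other one.
Adamts1: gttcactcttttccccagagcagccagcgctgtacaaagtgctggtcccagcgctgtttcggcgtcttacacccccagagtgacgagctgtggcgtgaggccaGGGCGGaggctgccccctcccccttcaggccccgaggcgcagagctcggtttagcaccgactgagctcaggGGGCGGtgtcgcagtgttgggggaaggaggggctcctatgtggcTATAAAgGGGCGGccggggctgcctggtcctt
Adamts2: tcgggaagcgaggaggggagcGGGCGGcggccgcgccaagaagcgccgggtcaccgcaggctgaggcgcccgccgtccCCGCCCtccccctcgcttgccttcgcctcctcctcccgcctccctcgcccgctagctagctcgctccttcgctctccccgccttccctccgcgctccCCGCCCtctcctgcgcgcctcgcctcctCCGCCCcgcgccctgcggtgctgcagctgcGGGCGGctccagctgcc
Adamts12: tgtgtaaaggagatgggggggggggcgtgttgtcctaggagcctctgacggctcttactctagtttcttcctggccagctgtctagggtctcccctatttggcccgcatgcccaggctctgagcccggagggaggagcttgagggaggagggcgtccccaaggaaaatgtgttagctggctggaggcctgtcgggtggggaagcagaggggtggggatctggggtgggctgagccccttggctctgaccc

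Adamts1 had 1 TATA box match, which ended 26 bases before the gene start, and 3 GC box matches, the nearest 19 bases before it. Adamts2 had 5 GC box matches and no TATA box match, and Adamts12 had neither. A GC box match was present in 32.7% and a TATA box match in 12.4% of 32851 windows of the same length. The CCAAT box CCAAT (33.8% of windows) and the AP-1 motif TGANTCA (6.75%) were searched as well and were not matched in these 3 windows. The number of CpG dinucleotides was 34 for Adamts2, 15 for Adamts1 and 6 for Adamts12, against a median of 6 over all windows. The Adamts2 window, with 78.0% G and C, thus was at percentile 96.5 of all windows by CpG number. These matches describe letters, and binding was not measured.

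Among the members, reads of Adamts12, Adamts9, Adamts5 and Adamts2 were the most frequent, and those of Adamts1 the least. Summed over the 7 genes, the adult library held 4657 reads or 478 RPM (464 to 492) and the aged library 3345 reads or 576 RPM (557 to 596). The aged to adult ratio of the sum was 1.21 (1.15 to 1.26). Adamts12 alone made up 41.7% of the adult and 26.8% of the aged reads of the group. Without it the sum went from 278 to 422 RPM, a ratio of 1.51 (1.43 to 1.60), which leaves out the only member with a ratio below 1.

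**Figure D1:**
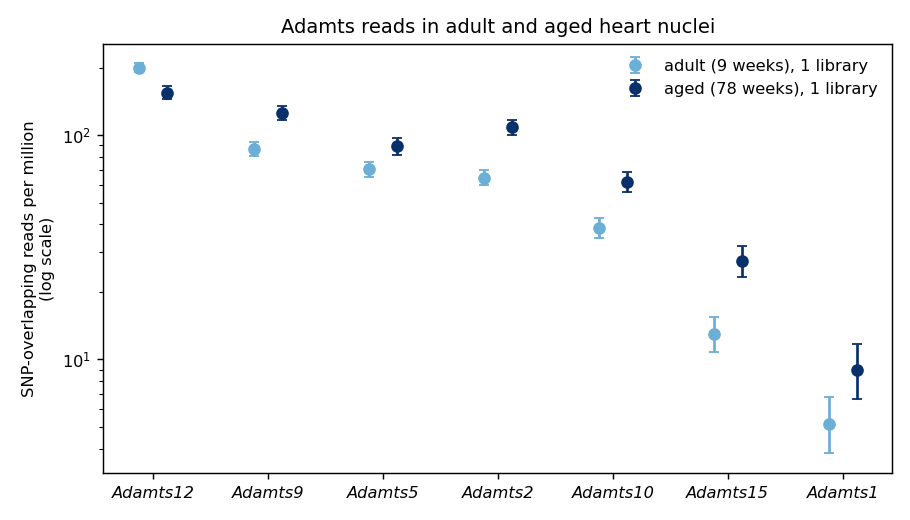
Level in RPM of SNP-overlapping reads (log axis) for the 7 Adamts genes in the adult (light blue) and aged (dark blue) library, 1 library each. Points are values and bars exact Poisson 95% intervals. The aged point lies above the adult point for 6 genes and below it for Adamts12.

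Adamts1, Adamts5, Adamts9 and Adamts15 are known as proteases of versican and related proteoglycans. Adamts15 lies on the minus strand of chromosome 9 of GRCm38, from 30899155 to 30922452. It had 126 reads in the adult library, 12.9 RPM (10.8 to 15.4), and 159 in the aged library, 27.4 RPM (23.3 to 32.0). The aged to adult ratio of 2.12 (1.67 to 2.70) was the highest of the 7 genes, at percentile 90.2 of all 13895 genes with at least 40 reads summed over both libraries. It was also the only member whose interval lay wholly above 1.5.

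Adamts1, first described as a gene induced in inflammation, spans 9.29 kb of chromosome 16, from 85793827 to 85803113 on the minus strand. It had 50 adult and 52 aged reads, 5.13 RPM (3.81 to 6.76) against 8.96 RPM (6.69 to 11.7). Its ratio of 1.75 (1.16 to 2.63) therefore rests on few reads, and the RPM intervals of the ages overlapped.

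Adamts5, a main protease of aggrecan in cartilage, lies 55043 bp from Adamts1 on the same chromosome, from 85858157 to 85901125 on the minus strand. It had 687 adult reads, 70.5 RPM (65.3 to 76.0), and 519 aged reads, 89.4 RPM (81.9 to 97.4). The ratio was 1.27 (1.13 to 1.42), below that of its neighbour but with overlapping intervals. Adamts5 shares 1217 bp with LOC108168297, and since no source used here gives a strand setting for the counts, reads of that stretch cannot be assigned to one locus.

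Adamts9 lies on the minus strand of chromosome 6, from 92772699 to 92944047, and encodes one of the longest proteases of the family. It had 846 adult reads, 86.8 RPM (81.0 to 92.8), and 730 aged reads, 126 RPM (117 to 135). The ratio of 1.45 (1.31 to 1.60) was just under 1.5. Its locus shares 3466 bp with 9530026P05Rik, listed with 4709 adult and 2098 aged reads. It also holds the 30599 bp of A730049H05Rik, listed with 94 adult and 80 aged reads. As for Adamts5, reads of the shared stretches cannot be assigned to one locus.

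Adamts2, the procollagen N-proteinase whose loss makes skin fragile, lies on the plus strand of chromosome 11, from 50602085 to 50807573. It had 629 adult and 628 aged reads, which amounts to 64.5 RPM (59.6 to 69.8) and 108 RPM (99.9 to 117). The ratio was 1.68 (1.5 to 1.88). The locus holds the 13679 bp of Gm39819, listed with 80 adult and 64 aged reads, and reads of that stretch cannot be assigned to one locus either.

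Adamts10, which is associated with fibrillin microfibrils, lies on the plus strand of chromosome 17, from 33524121 to 33553782. It had 375 adult reads, 38.5 RPM (34.7 to 42.6), and 360 aged reads, 62.0 RPM (55.8 to 68.8), a ratio of 1.61 (1.39 to 1.87). No other listed locus overlaps it.

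Adamts12, a relative of Adamts7 and like it a protease of cartilage oligomeric matrix protein, lies on the plus strand of chromosome 15, from 11064790 to 11346867. Its 1944 adult reads gave 199 RPM (191 to 209) and its 897 aged reads 155 RPM (145 to 165). The ratio of 0.775 (0.715 to 0.839) was the only one below 1 among the 7 genes. It was at percentile 21.8 of all genes, and no other listed locus overlaps Adamts12.

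The aged library was thus at least 1.5-fold higher for 4 of 7 members, Adamts1, Adamts2, Adamts10 and Adamts15, against 27.1% of all 13895 genes. None of the 7 was lower by 1.5-fold or more, that is at a ratio of 0.667 or less, against 15.1% of all genes. The interval of the ratio lay wholly above 1 for 6 members (40.1% of all genes) and wholly below 1 for Adamts12 (22.4%). Such an interval narrows with the number of reads, and these shares are not matched for it. Of the members, 5 had at least 300 reads in each library, while the shares take in genes from 40 summed reads. The median ratio was 1.61 over the members and 1.13 over all genes, so that part of each ratio is shared with the typical gene of the aged library. Relative to that median of all genes, Adamts15 was at 1.87, Adamts1 at 1.54, Adamts2 at 1.48, Adamts10 at 1.42, Adamts9 at 1.28, Adamts5 at 1.12 and Adamts12 at 0.683. On this scale 2 members were at least 1.5-fold higher, Adamts1 and Adamts15, against 19.3% of all genes, and none was 1.5-fold lower, against 20.6%. Of all genes past 1.5-fold in either direction, 64.2% were higher in the aged library when scaled to the total and 48.3% on this scale.

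The ratio also moved with the length of the locus. Its median over all genes fell from class to class, from 1.33 for loci of up to 10 kb to 1.16 for 10 to 30 kb, 1.10 for 30 to 100 kb, 1.01 for 100 to 200 kb, 0.977 for 200 to 300 kb and 0.922 for loci over 300 kb. Adamts1 belongs to the shortest class, of whose genes 40.6% were at least 1.5-fold higher in the aged library. Adamts2 and Adamts12 both belong to the class of 200 to 300 kb, in which 19.0% of genes were that much higher and 25.5% that much lower. Divided by the median of its length class, Adamts15 was at 1.83, Adamts2 at 1.72, Adamts9 at 1.43, Adamts10 at 1.39, Adamts1 at 1.32, Adamts5 at 1.15 and Adamts12 at 0.793. On this scale, added after the values were seen, Adamts2 and Adamts15 were at least 1.5-fold higher, against 18.3% of all genes, and no member was that much lower, against 20.7%. The part of locus length in the ratios of the members was not tested.

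**Figure D2:**
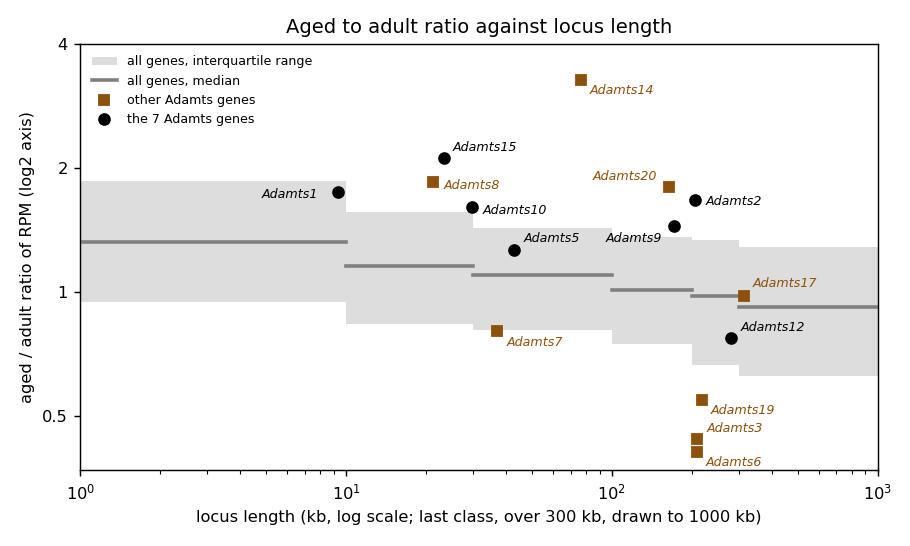
Aged to adult ratio of RPM (log2 axis) against locus length (log axis) for the 7 Adamts genes (black circles) and the 8 other Adamts genes with at least 40 summed reads (brown squares). Grey lines and bands are the median and interquartile range of all genes in 6 length classes. Adamts2 and Adamts12, both over 200 kb long, lie on opposite sides of the median of their class.

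Levels of different genes are set side by side here per kb of locus, a scale that need not order them by amount of RNA. The number of SNPs in each locus, which also sets the SNP-overlapping reads, is not given in the sources used here. Reads primed at the 3′ end need not cover a locus evenly either. Per kb of locus, the adult order began with Adamts5 at 1.64 RPM per kb (1.52 to 1.77), followed by Adamts10 at 1.30 (1.17 to 1.44) and Adamts12 at 0.707 (0.676 to 0.739). Adamts15 (0.555), Adamts1 (0.552) and Adamts9 (0.507) could not be ordered, since their intervals overlapped, and Adamts1 overlapped Adamts12 as well. Adamts2 was lowest at 0.314 RPM per kb (0.290 to 0.340). In the aged library, Adamts10 at 2.09 (1.88 to 2.32) and Adamts5 at 2.08 (1.91 to 2.27) overlapped at the top, before Adamts15 at 1.18 and Adamts1 at 0.964, whose intervals overlapped too. Adamts9 followed at 0.734, with an interval that overlapped that of Adamts1 alone, and Adamts12 at 0.548 and Adamts2 at 0.526 overlapped at the bottom.

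Both alleles were read for every member at both ages. For 5 of the 7 genes the interval of the change in the proportion of the alleles between 9 and 78 weeks held 0. It excluded 0 for the other 2, and for 26.5% of autosomal genes. The allelic ratio is the share of BL6 reads. Its median over autosomal genes with at least 20 reads was 0.536 in the adult library (14037 genes) and 0.537 in the aged library (12770 genes), with interquartile ranges of 0.474 to 0.604 and 0.465 to 0.613. BL6 was the mother of this cross only, so an effect of the strain and one of the parent cannot be told apart. The autosomal median serves as the reference because it carries any mapping preference of a library, which was not measured separately. No member had an interval wholly above or wholly below the autosomal median in both libraries. Over 12390 autosomal genes with at least 20 reads in each library, 13.4% were above and 13% below it in both.

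The allelic ratio of Adamts5 was 0.515 (0.477 to 0.553) at 9 weeks and 0.524 (0.480 to 0.568) at 78 weeks, from 354 and 272 BL6 reads. Adamts2 was at 0.514 (0.474 to 0.553) and 0.525 (0.486 to 0.565), from 323 and 330 BL6 reads. Adamts10 was at 0.520 (0.468 to 0.572) and 0.550 (0.497 to 0.602), from 195 and 198 BL6 reads. All of these intervals held the autosomal median.

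Adamts9 had more BL6 than CAST reads at both ages, as 478 of 846 reads carried the BL6 allele at 9 weeks and 440 of 730 at 78 weeks. Its allelic ratio was 0.565 (0.531 to 0.599) and 0.603 (0.566 to 0.638). The adult interval held the autosomal median, and the aged interval was above it. Both intervals were above 0.5. The nearest neighbours with 20 reads at both ages also had more BL6 than CAST reads, Prickle2 with 0.588 and 0.583 and Gm38863 with 0.659 and 0.568.

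Adamts12 had more CAST than BL6 reads in the adult library, with 937 BL6 and 1007 CAST reads. Its adult allelic ratio of 0.482 (0.460 to 0.504) lay below the autosomal median, while the aged value of 0.513 (0.480 to 0.546), from 460 BL6 and 437 CAST reads, did not. Read by allele, Adamts12 went from 96.1 to 79.2 RPM for BL6 and from 103 to 75.3 RPM for CAST. Both alleles were thus lower in the aged library, with ratios of 0.824 (0.736 to 0.923) and 0.729 (0.650 to 0.816).

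**Figure D3:**
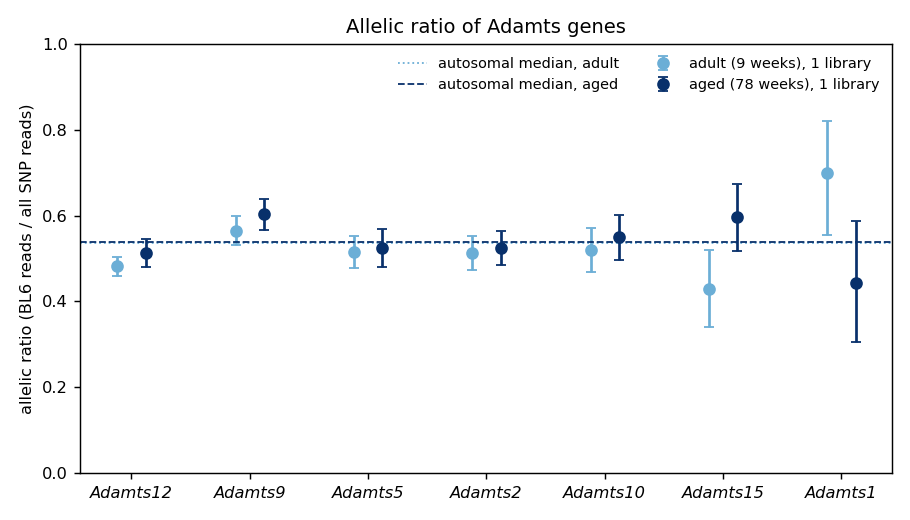
Allelic ratio (BL6 reads divided by all SNP-overlapping reads) of the 7 Adamts genes in the adult (light blue) and aged (dark blue) library, 1 library each, with exact Clopper-Pearson 95% intervals as bars. The nearly coinciding horizontal lines are the autosomal medians, 0.536 and 0.537, and Adamts1 and Adamts15 cross them in opposite directions.

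A change in allelic ratio of 0.1 or more was found for Adamts1 and Adamts15, the members with the fewest reads. Such a change was present in 28% of the 12390 autosomal genes, and in 45.7% of the 5322 with fewer than 100 reads in the shallower library, as is the case for Adamts1. Among the 7068 genes with at least 100 reads in each library it was 14.7%, and 1 of the 6 members with this depth, Adamts15, was among them. In the adult heart 35 reads of Adamts1 carried the BL6 and 15 the CAST allele, while the aged heart gave 23 and 29. Its allelic ratio was 0.700 (0.554 to 0.821) and 0.442 (0.305 to 0.587), a change (adult minus aged) of 0.258 (0.0655 to 0.425, Newcombe interval). CAST reads were higher in the aged library by a ratio of 3.25 (1.68 to 6.51), whereas BL6 reads were at 1.10 (0.622 to 1.92).

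Adamts15 changed in the opposite direction. CAST was the more frequent allele at 9 weeks, with 72 reads against 54, and BL6 at 78 weeks, with 95 against 64. The allelic ratio went from 0.429 (0.341 to 0.520) to 0.597 (0.517 to 0.674). The change was -0.169 (-0.280 to -0.0521). BL6 reads were higher in the aged library by a ratio of 2.95 (2.09 to 4.21) and CAST reads by 1.49 (1.05 to 2.12). The exact intervals of the ages overlapped slightly for both genes, while the interval of the change excluded 0 for 2 of 7 members and for 26.5% of autosomal genes. For the other 5 members the change ranged from -0.0377 to -0.00880, with 0 inside each interval. The median absolute change was 0.0308 over the 7 members and 0.0572 over autosomal genes, which are not matched for reads. Of the 12390 autosomal genes, 5322 had fewer than 100 reads in the shallower library, while 6 of the 7 members had at least 100 in each.

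**Figure D4:**
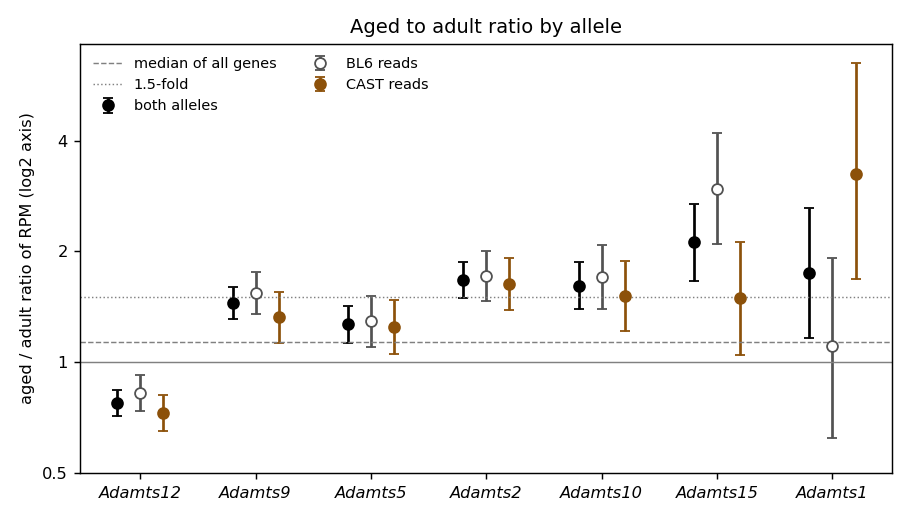
Aged to adult ratio of RPM (log2 axis) of the 7 Adamts genes from both alleles (black), BL6 reads (open) and CAST reads (brown), with exact 95% intervals. The grey lines mark a ratio of 1 (solid), the median of all genes, 1.13 (dashed), and 1.5 (dotted). BL6 and CAST points lie close together for 5 genes, CAST is higher for Adamts1 (3.25 against 1.10) and BL6 is higher for Adamts15 (2.95 against 1.49).

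Adamts1 and Adamts5 are neighbours, yet their allelic ratios did not move together, with 0.700 and 0.442 for Adamts1 and 0.515 and 0.524 for Adamts5. Cyyr1, on the other side of Adamts1 at a distance of 242921 bp, had 0.483 (0.455 to 0.512) and 0.407 (0.375 to 0.439). This was a smaller shift in the direction of Adamts1, with intervals that did not overlap. Adamts15 lies 20109 bp from Adamts8, which had an allelic ratio of 0.310 (0.153 to 0.508) from 29 adult and 0.531 (0.347 to 0.709) from 32 aged reads, a shift in the direction of Adamts15 that its intervals do not resolve. The other neighbour of Adamts15, Gm31013, was at 0.573 and 0.554.

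The close relatives of the members went different ways. Adamts3 and Adamts14 encode the other procollagen N-proteinases beside Adamts2. Adamts3 went from 163 to 71.5 RPM, a ratio of 0.440 (0.394 to 0.490), and Adamts14 from 2.15 to 7.06 RPM, a ratio of 3.28 (1.89 to 5.84) from 21 and 41 reads. Adamts6, the relative of Adamts10, had the most reads among the other Adamts genes, 2699 and 660, and went from 277 to 114 RPM, a ratio of 0.411 (0.376 to 0.447) against 1.61 for Adamts10. Adamts7, the relative of Adamts12, had a ratio of 0.804 (0.637 to 1.01), and Adamts20, the relative of Adamts9, had 1.80 (1.15 to 2.83) from 41 and 44 reads. The intervals thus were apart for Adamts10 and Adamts6 and for Adamts2 against both of its relatives, and overlapped for Adamts12 and Adamts7 and for Adamts9 and Adamts20.

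Of the 12 other Adamts genes, 11 were listed and 8 had at least 40 summed reads. In the aged library 3 of these 8 were at least 1.5-fold higher (Adamts8, Adamts14, Adamts20) and 3 at least 1.5-fold lower (Adamts3, Adamts6, Adamts19). Over all genes the shares were 27.1% higher and 15.1% lower, and these apply beside the counts of the lists below as well. The median ratio of the 8 was 0.891, against 1.61 for the 7 members. Summed over the 11 listed, the other Adamts genes went from 633 to 355 RPM. This was a ratio of 0.561, against 1.21 for the sum of the 7 members, so the rise of that sum does not hold for the other genes. Of the 7 ADAMTS-like genes, which have the repeats without the protease, Papln (ratio 2.40), Adamtsl5 (96.6 against 48.2 RPM) and Adamtsl2 (ratio 1.55) were higher and Adamtsl1 (ratio 0.535) was lower. Adamtsl3, with the most reads, was at 1.09, and the median of the 7 was 1.47.

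Among the inhibitors, Timp3, the tissue inhibitor that acts on several ADAMTS proteases, had the most reads and went from 153 to 215 RPM, a ratio of 1.41 (1.30 to 1.52). Timp4 (3.59, from 22 and 47 reads) and Reck (1.69) were past 1.5-fold, A2m was lower (0.183, from 55 and 6 reads), and the median of the 5 inhibitors with enough reads was 1.41. Of 7 genes for activation, cofactors and clearance, 3 were higher and 1 was lower, with a median of 1.31. Lrp1, the endocytic receptor that takes up ADAMTS proteases, was at 2.12 (1.90 to 2.36) and the cofactor Fbln1 at 1.77. The convertase Pcsk6 was at 2.10 and the convertase Pcsk5 at 0.521.

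Among the genes of the proteoglycan substrates and their partners, Vcan, which encodes versican, went from 33.8 to 92.1 RPM, a ratio of 2.73 (2.38 to 3.14), and Has2, a hyaluronan synthase, from 4.31 to 25.5 RPM, a ratio of 5.92 (4.17 to 8.55). The link protein gene Hapln1 was at 2.43 (1.45 to 4.12). Only 4 of 11 genes of this list had at least 40 summed reads, and 3 of them were at least 1.5-fold higher, against 27.1% of all genes. Acan, the gene of aggrecan, had 5 and 9 reads. The procollagen and fibrillin genes gave no common direction, with Col5a1 higher (1.84), Col3a1 lower (0.654), Col5a2, the most read, at 1.05 and a median of 0.969 over 6 genes.

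The nuclei of all cell types are pooled, so fewer cells of a type and less RNA per cell cannot be told apart. The summed level of 8 fibroblast markers went from 712 to 1181 RPM, a ratio of 1.66, of which Dcn gave 461 and 773 RPM. In this list 6 of the 7 with enough reads were at least 1.5-fold higher, against 27.1% of all genes. They were Gsn (2.40), Lum (2.13), Tcf21 (1.87), Pdgfra (1.71), Dcn (1.68) and Ddr2 (1.60). The seventh, Col1a2, was at 0.888 (0.750 to 1.05). Scaled to this sum instead of the library total, Adamts2 was at 1.01, Adamts1 at 1.05, Adamts10 at 0.972, Adamts9 at 0.874, Adamts5 at 0.765, Adamts12 at 0.467 and Adamts15 at 1.28. No member was then 1.5-fold higher, against 5.8% of all genes, and Adamts12 was past 1.5-fold lower, against 47.7%, so that these counts are no result about the members. Smooth muscle markers went from 100.4 to 303 RPM in sum (ratio 3.02), pericyte markers from 118 to 213 RPM (1.80) and macrophage markers from 295 to 472 RPM (1.60). At least 1.5-fold higher were 4 of 4 smooth muscle, 3 of 4 pericyte and 3 of 5 macrophage markers with enough reads (27.1% of all genes). None was that much lower (15.1%). The remaining pericyte marker with enough reads, Abcc9, was at 0.853 (0.681 to 1.06). Endothelial markers went from 482 to 760 RPM (1.58), with Pecam1, Flt1 and Kdr past 1.5-fold and Emcn (0.970), Vwf (0.953) and Cdh5 (1.12) near 1. The cardiomyocyte sum had a ratio of 0.935 although 4 of 6 markers were above 1, with Ttn at 0.580 and Actc1 at 4.11. The endocardial sum was at 0.831, with Npr3 at 0.555, Cgnl1 at 1.10 and Hapln1 at 2.43. Adipocyte markers were at 0.882, with none past 1.5-fold, and mesothelial markers at 0.245, with both markers that had enough reads lower. The lymphocyte sum was at 0.381 and came mostly from Skap1, with 172 of 194 adult reads, while Cd79a had 9 reads at each age and Ms4a1 4 and 5. The pericyte marker Kcnj8 was not listed at either age, and the T cell marker Cd3e had no reads in the aged library. The part of the cell mixture in the ratios of the members was not tested.

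Over 4 values, both alleles at both ages, each centred on the gene's mean log2 RPM, the 2 autosomal genes nearest to Adamts12 were Mga and Stx7, at Euclidean distances of 0.0195 and 0.0444. Those nearest to Adamts9 were Ppp2r5e and Esyt1, at 0.0195 and 0.0295. Among the 7057 genes compared, 19 lay within 0.1 of Adamts12 and 32 within 0.1 of Adamts9, so patterns over so few values were shared by several genes.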

How the data were processed

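Single-nucleus RNA-seq of 1 adult (9 weeks) and 1 aged (78 weeks) heart was analysed, with groups taken from the age given in the labels. The authors aligned reads to mm10 with Cell Ranger 7.1.0, split alignments by nucleus and active X, pooled nuclei with an active BL6 X and counted SNP-overlapping reads of each allele per RefSeq gene with Allelome.PRO2. The deposited read counts are not normalized, and the authors' allelic ratio is a fraction rounded to 2 decimals. The deposited allelic score was not used. The study corrected its expression matrices for ambient RNA (CellBender) and removed doublets (DoubletFinder), and neither these steps nor a collapse of duplicate reads is stated for the allele counts.

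Levels were scaled to each library's total (RPM). Ratios between ages were computed for genes with at least 40 summed reads and called at 1.5-fold, and allelic ratios for genes with at least 20 reads per library. Intervals are 95%: exact Poisson (levels), exact conditional binomial (ratios), Clopper-Pearson (allelic ratios) and Newcombe (changes). They were computed with scipy 1.17.1 in Python 3.11.15 and tested on simulated data with independent reads. With 1 library per age no between-age test was made. Starts are counted from 1. Strands come from GENCODE M21 on GRCm38.

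All members were named. From each list of related genes the most-read gene and up to 3 with the largest ratios past 1.5-fold were named, together with nearest neighbours and the most similar genes. Outside the rule, and with values already seen, Adamts7, Adamts19, Adamts20, Acan, Adamtsl2, Fbln1, and markers of fibroblasts and other cell types were named too. The members and lists were chosen with earlier results of these data known. Alternatives were other scales, single alleles, other folds, filters and references, and members without overlapping loci. The result of 1 marker list is not reported here.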

Additional observations from a re-analysis of the deposited data

Results flagged for a closer look

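Adamts1 and Adamts15 were each on opposite sides of the autosomal median allelic ratio in the adult and the aged library, with an interval of the change that excluded 0. Such an interval excluded 0 for 26.5% of 12390 autosomal genes, so the count of 2 of 7 members is no result about the family. The change (adult minus aged) was 0.258 for Adamts1, from 50 and 52 reads, and -0.169 for Adamts15, from 126 and 159 reads. Each age is 1 heart, so the difference between the ages was not tested.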

How the results depend on the processing

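The median ratio of the 7 members stayed within the interval of the middle member (1.39 to 1.87) under 7 of 8 alternatives, from 1.39 relative to genes of the same locus length to 1.68 without the 3 members whose loci overlap others, and was 0.972 when scaled to fibroblast markers, which turned Adamts10 to 0.972 as well. The number of members at least 1.5-fold higher went from 4 to 2 with the median of ratios, 2 relative to locus length, 1 with a 2-fold limit and 0 on the fibroblast scale, where 1 member was 1.5-fold lower. It was 3 of 7 with CAST reads alone (29.1% of all genes). Of the 4 members without overlapping loci it was 3, and no share over all genes without overlaps was computed. The 2-fold limit was passed by 11.9% of all genes. With 0.5 as the reference, 1 member (Adamts9) was above it in both libraries (23.5% of genes), and with at least 100 reads per library 1 of 6 members changed by 0.1 or more in allelic ratio (14.7% of genes). Of 41 alternatives for counts and medians, 33 left medians within the interval of the middle member and counts within 1.5 times the reported count. Some of these 33 could not differ. All 7 members passed the read filter, so leaving it out changed no count, and a count of 0 stays 0 in a subset of the members. Over all genes, the share of higher calls was 64.2%, against 57.7% without the 100 most-read genes, 48.3% with the median of ratios, 47.0% relative to locus length and 10.8% on the fibroblast scale. Depth limits Adamts1 and Adamts15, with fewer than 200 reads each. No paired analysis was possible because each age has 1 library.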
